A study of Mus musculus with 12 samples.

Results

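The data described here compare primary neurospheres with the pluripotent cells they were grown from, in 2 mouse lines. They are 4 of the 12 arrays of a study of directly induced neural stem cells. The members are fixed by the labels: cells of the induced pluripotent stem (iPS) line 38C2 and the embryonic stem (ES) line EB3, and the primary neurospheres derived from each. RNA came from Trizol extracts and was read on Affymetrix arrays of 45101 probe sets. There is 1 array for each stage of each line, so the replicates of a stage are 2 different lines. The labels say that neurospheres were grown in a medium called MHM and pluripotent cells in standard conditions. They do not give the strain of either line, the days of culture or the induction protocol, and they name no genetic change. A neurosphere is a pool of cells and not a sorted type. No label says that arrays came from separate cultures beyond the 2 lines, so the spread behind each p-value may in part be technical. The other 8 arrays (secondary neurospheres of the same 2 lines, neurospheres from embryonic ganglionic eminence (GE), adult fibroblasts, and 4 fibroblast-derived neurosphere cultures) entered the fits to estimate the spread. The adult fibroblast-derived cultures differ in medium, being labelled +EGF+cAMP and +LIF. The embryonic fibroblast-derived cultures also differ in medium, by cAMP added to LIF. Secondary neurosphere values of the 2 lines are given where they follow a gene one stage further. The labels were checked against markers. The signals of 6 pluripotency markers summed to 18638 in iPS and 18783 in ES cells. Those of 7 neural stem cell markers summed to 8598 and 8833 in the primary neurospheres of the iPS and ES lines. In iPS and ES cells these 7 summed to 3660 and 3484, of which Sox2, which both stages carry, gave 3353 and 3418. The ES-line primary neurospheres stood apart in that the pluripotency markers still summed to 7675 there, against 58.1 in the iPS line.

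Mouse ES and iPS cells hold themselves in a naive pluripotent state through a network of transcription factors around Oct4 (Pou5f1), Sox2 and Nanog, which leukaemia inhibitory factor (LIF) and STAT3 support in culture. Aggregates of such cells that are turned towards the neural lineage shut this network down, pass through an epiblast-like and a neuroectodermal stage, and can then be kept floating as spheres that hold neural stem cells and their progeny. In those cells Notch ligands and Hes repressors hold some cells as progenitors, and proneural bHLH factors such as Neurog1 and Neurog2 drive others to become neurons.

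Values are MAS5 signals on a linear scale, on which the mean of each array, with the highest and lowest 2% of its probe sets left out, is 100. Changes are differences of log2(signal + 5), primary neurospheres minus pluripotent cells, so changes of dim genes are understated. Of 13650 genes tested, 4109 (30.1%) differed between the stages over both lines together (adjusted p under 0.05, limma, not paired by line). Of these, 2632 were higher (19.3% of all genes) and 1477 lower (10.8%) in the primary neurospheres, shares against which list counts below are to be read. The iPS-line array of primary neurospheres weighs on this number: without it 1555 genes were called, and without the ES cells 2604. When each array was set to the same median in place of the same trimmed mean, 48.5% of the called genes were higher, against 64.1% here, and the median change of all genes moved from -0.03 to -0.06 in the iPS line and from 0.16 to -0.17 in the ES line. Small changes of single genes are therefore not read as directions below.

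The 2 lines moved in the same sense for most genes with a large change. Across the 13650 genes the change in the iPS line and that in the ES line had a Pearson r of 0.773, a description only, since genes on 4 arrays are not independent. A gene was put in the class of genes that moved alike when it changed by at least 1 in the same direction in both lines. This held for 2193 genes that were higher (16.1%) and 861 that were lower (6.31%) in the primary neurospheres. A gene was put in a 1-line class when it changed by at least 2 in a line and by no more than 0.5 in the other, which held for 304 genes (2.23%). The most frequent kind was lower in the iPS line only, with 182 genes (1.33%), then higher in the ES line only with 83 (0.608%), higher in the iPS line only with 26 (0.19%) and lower in the ES line only with 13 (0.0952%). A further 97 genes (0.711%) changed by at least 1 in opposite directions. These classes are sizes without a test, because each line has 1 array per stage. With the spread of the fibroblast-derived arrays in its place, the change passed the test for 4470 genes in the iPS line (32.7%) and 2858 in the ES line (20.9%). Without 1 of those arrays the counts ranged from 2023 to 5943 in the iPS line and from 648 to 4519 in the ES line.

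**Figure D1:**
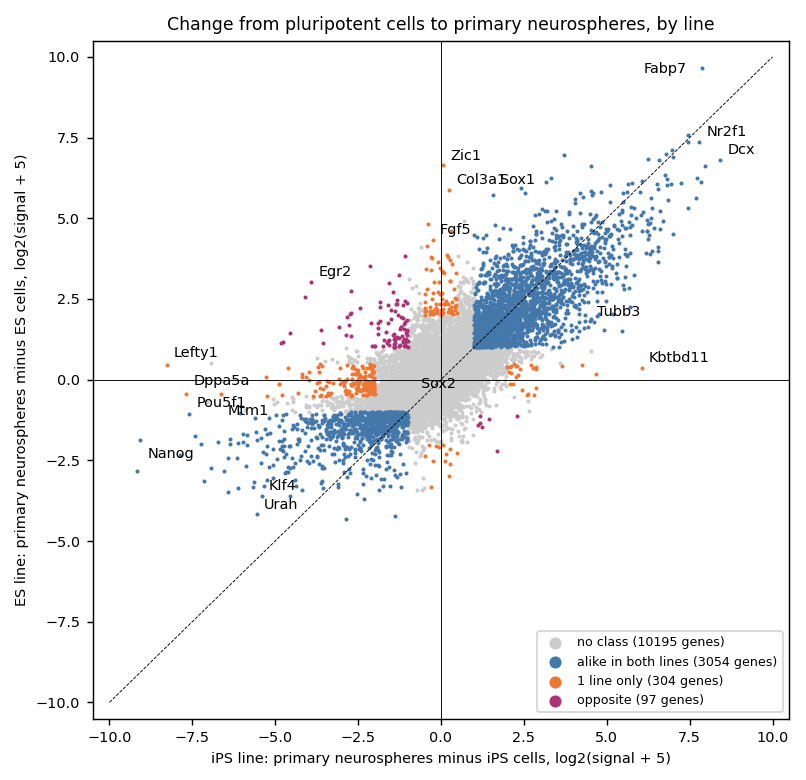
Each point is a gene, with its change from iPS cells to primary neurospheres on the x axis and from ES cells to primary neurospheres on the y axis, in units of log2(signal + 5). Blue points moved alike in both lines, orange points in 1 line only (304), purple points in opposite directions (97). The dashed line marks equal change. Lefty1, Dppa5a and Mtm1 lie far to the left at a change near 0 in the ES line, and Zic1 and Col3a1 lie high at a change near 0 in the iPS line.

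Genes of neural stem cells and radial glia, the dividing cells that line the embryonic neural tube, rose in both lines. Fabp7, a fatty acid binding protein of radial glia, read 16.9 in iPS cells and 1.2 in ES cells, against 5082 and 5037 in the primary neurospheres of the iPS and the ES line. The signals went from near the floor to among the brightest on the arrays. The mean change of 8.76 over the 2 lines (SE 0.50, adjusted p = 0.000109) was the highest of the 13650 genes. Fabp7 changed by 7.86 in the iPS line and 9.67 in the ES line. The SE of each mean change comes from the spread pooled over 12 arrays in 7 groups, so it is not the spread of the 2 lines. Ednrb, the endothelin B receptor, went from 1.6 and 0.5 to 1161 and 899.5 (mean change 7.41, SE 0.55, adjusted p = 0.000199). Nes, the intermediate filament used as a neural stem cell marker, went from 40 and 8.3 to 326 and 297 (mean change 3.69, adjusted p = 0.00138). In each of these 3 genes both neurosphere arrays were above both pluripotent arrays, and the neurospheres of the 2 lines were close to each other. Arrays of the 2 stages did not overlap for 64.5% of all genes, so that absence of overlap alone says little.

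Of 28 tested genes of the neural stem cell list, 24 rose and 1 fell, against 19.3% and 10.8% of all genes. The median change was 2.48 in the iPS line and 2.90 in the ES line. The gene that fell was Cd9, a membrane tetraspanin that pluripotent cells also carry, from 2345 and 1344 to 113 and 369.9 (mean change -3.08, adjusted p = 0.00355). The transcription factors of early neuroectoderm rose too. Sox3 went from 26.8 and 17.6 to 447 and 343 (mean change 3.89, adjusted p = 0.0032), and Sox11, which acts in progenitors and new neurons, from 214 and 56.2 to 3585 and 2960.1 (4.82, adjusted p = 0.00098). Pax6, a factor of dorsal and intermediate neural progenitors, went from 34 and 50.1 to 449 and 311 (3.03, adjusted p = 0.00147). All 3 were at similar levels in the neurospheres of both lines. Sox2, which pluripotent and neural stem cells share, did not pass the test. Its signal was 3353 (iPS) and 3418 (ES) before, and 1908 and 2547 in the neurospheres.

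Sox1, the earliest specific factor of neuroectoderm, ended at a similar level from different starts. It was 209.6 in iPS cells and 4.4 in ES cells, against 632 and 496 in the primary neurospheres. The rise over both lines passed the test (3.65, SE 1.12, adjusted p = 0.0392), while the difference between the lines in the change, 4.17 (SE 0.44), did not (adjusted p = 0.0575). The iPS cells were far above the ES cells, and both neurosphere arrays above both. The call was lost without the iPS-line neurospheres (adjusted p = 0.167) or the ES-line neurospheres (0.0778).

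Several Notch pathway genes rose, Hes5 and Dner from low levels. Notch receptors are cut upon binding a ligand on the next cell, and the released fragment acts with RBPJ at genes such as Hes5 to block neuronal differentiation. Of 17 tested members 11 rose and 0 fell. Without the iPS-line array of primary neurospheres 5 rose. Hes5, the repressor that reads Notch activity in neural progenitors, went from 1.6 in iPS cells and 5.0 in ES cells to 989 and 682 (mean change 6.67, SE 0.63, adjusted p = 0.000352). Among ligands and their relatives, Dll1 went from 57.9 and 48.4 to 472 and 306 (2.73, adjusted p = 0.000682) and Dner, a neuronal Notch ligand-like protein, from 15.6 and 25.8 to 1749.6 and 798 (5.56, adjusted p = 0.000374). Nrarp, a feedback inhibitor and target of Notch, went from 59.2 and 27.9 to 1105 and 469 (3.98, adjusted p = 0.00083). In all 4 the neurospheres of both lines stood above both pluripotent cultures, and the iPS-line neurospheres above the ES-line ones.

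The promoter of Hes5 is shown because the gene went from near the floor to a bright signal in both lines. The RefSeq sequence (GRCm38.p6, chr4:154960673-154960922, plus strand) covers the 250 bases before the start and is written 5′ to 3′. Capitals mark the letters GTGGGAA, the core bound by RBPJ, or their reverse complement TTCCCAC.
Hes5: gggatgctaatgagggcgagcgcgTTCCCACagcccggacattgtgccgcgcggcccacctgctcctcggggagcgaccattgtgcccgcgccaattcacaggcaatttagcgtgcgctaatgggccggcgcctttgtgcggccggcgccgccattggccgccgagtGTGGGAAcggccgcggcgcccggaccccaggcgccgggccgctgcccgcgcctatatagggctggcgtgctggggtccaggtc
The matches begin 226 and 83 bases before the start. The 300-base RefSeq promoter, which adds 50 bases after the start, was found for 10960 of the 13650 genes, and 688 of them (6.28%) hold this motif on either strand. It was present in 3 of the 13 Notch list promoters found and in 6.15% of those of genes that were higher in both lines. A match is only a run of letters, and binding was not measured.

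Genes of neuronal differentiation rose in both lines, and their signals were higher in the iPS-line neurospheres. Of 17 tested proneural and neurogenic factors 15 rose and 0 fell, with a median change of 4.50 in the iPS line and 3.65 in the ES line. Of 30 tested neuronal genes 26 rose and 0 fell, with medians of 4.40 and 3.17. All genes together had medians of -0.03 and 0.16. Neurog2, which commits progenitors to a neuronal fate, went from 8.0 and 7.9 to 258 in the iPS line and 135 in the ES line (mean change 3.89, adjusted p = 0.00186). Nhlh2, a bHLH factor of newborn neurons, went from 2.1 and 0.2 to 1755 and 509 (7.29, adjusted p = 0.00114). Dcx, the microtubule protein of migrating young neurons, went from 0.6 and 1.8 to 1908 and 762 (7.62, SE 0.49, adjusted p = 0.000109). The neurospheres of both lines were far above their source cells in all 3, with the iPS-line array the higher one.

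Cytoskeletal and synaptic genes showed the same order. Tubb3, the neuronal tubulin, read 128 and 289 in iPS and ES cells and 3009.6 and 1026 in their neurospheres (mean change 3.16, adjusted p = 0.00765, and 0.0576 without the iPS-line neurospheres). Nefm, a neurofilament subunit of maturing axons, went from 10.1 and 13.7 to 3091 and 926 (6.66, adjusted p = 0.00157), and Snap25, part of the synaptic vesicle fusion machinery, from 2.5 and 5.4 to 726 and 257 (5.63, adjusted p = 0.000729). The level was higher in the iPS-line than in the ES-line neurospheres for 30 of 30 neuronal and 17 of 17 proneural genes, against 6159 of 13650 genes overall. The test of the difference between the lines found none of these genes at an adjusted p under 0.05 (Tubb3 -2.69, SE 0.46, adjusted p = 0.124). Both transmitter types were present, with Slc17a6, the vesicular glutamate transporter, at 115 and 107 in the neurospheres and Gad2, a GABA-making enzyme, at 70.7 and 53. On these bulk arrays, more neurons in a sphere and more RNA of a gene per neuron cannot be told apart, here and in all results below. The pluripotency markers, at 58.1 and 7675 in these 2 arrays, stood in the opposite order, and their part in the lower neuronal signals of the ES line was not tested. Stmn2, another neuronal microtubule gene, did not pass the test, with signals of 1506 and 2276 already in the pluripotent cells against 3175 and 1590.3.

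Ion channel and transmitter receptor subunits rose as well, 12 of 16 tested (7 without the iPS-line neurospheres) with 0 that fell. Gria2, an AMPA receptor subunit, went from 6.2 and 5.6 to 171 and 136 (mean change 3.85, adjusted p = 0.000215). Scn2a, a neuronal sodium channel, went from 2.2 and 0.1 to 157 and 53.7 (4.01, adjusted p = 0.00205). In the secondary neurospheres of the iPS and ES lines Dcx read 449 and 216, Nefm 143 and 35.1, and Neurog2 10.1 and 0.8. All 6 values were below those of the primary neurospheres of the same line.

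Of 17 tested astrocyte genes 5 rose and 1 fell, and of 14 oligodendrocyte lineage genes 4 rose and 0 fell, against 19.3% and 10.8% of all genes. Among the astrocyte genes that rose, Sparcl1, a matrix protein, went from 1.4 and 0.7 to 423 and 402 (mean change 6.11, adjusted p = 0.000131), and Slc1a2, a glutamate transporter, from 4.3 and 2.8 to 215 and 117 (4.26, adjusted p = 0.000652), although 1 of its 3 probe sets had the other sign in the ES line. Both genes are also known from radial glia. Gfap, the filament of mature astrocytes, read 0.2 in both neurospheres, 0.2 in iPS cells and 2.1 in ES cells. Apoe, which astrocytes secrete but naive pluripotent cells also carry, fell from 2341 and 1288 to 44.9 and 349 (-3.71, adjusted p = 0.0215), a call that was lost when any of iPS cells, ES cells or iPS-line neurospheres was left out (adjusted p of 0.0832, 0.0548 and 0.137). Olig2, a factor of motor neuron and oligodendrocyte progenitors, rose from 2.5 and 1.8 only to 45.9 and 33.2. It read 1689 and 922 in the secondary neurospheres, above every primary and pluripotent array.

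Genes that mark position along the neural tube are given by region. Of 26 tested midbrain, hindbrain and spinal cord genes 16 rose and 0 fell, with median changes of 1.97 and 2.72 in the iPS and ES lines. Of 11 tested forebrain genes 2 rose over both lines, which were Lhx2 and Dlx1, and 0 fell, near the 19.3% of all genes that rose. Their median changes were -0.17 in the iPS line and 1.29 in the ES line. By line, 2 of the 11 rose by at least 1 in the iPS line and 6 in the ES line, against 2897 and 3324 of all 13650 genes. Hoxb2, a hindbrain Hox gene, went from 18.9 and 1.2 to 436 and 336 (mean change 4.99, adjusted p = 0.000649), and Hoxb5, which reaches into the posterior hindbrain and spinal cord, from 1.5 and 1.0 to 72.8 and 64.5 (3.56, adjusted p = 0.00762). Irx3, a factor of posterior neural plate and intermediate progenitors, went from 35.8 and 6.2 to 926 and 644 (5.18, adjusted p = 0.000546). All 3 were near the floor in ES cells and clearly present in the neurospheres of both lines. Dlx1 stayed dim, with 9.2 and 40.9 in the neurospheres, and its call was lost without any of the iPS cells, the ES cells or the ES-line neurospheres (adjusted p 0.0504, 0.0685 and 0.0566).

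Along the other axis of the tube, genes of dorsal, intermediate and ventral progenitors rose together in the same cultures. Pax3 and Pax7, which mark the dorsal tube, went from 6.3 and 3.5 to 141 and 186 and from 0.5 and 0.6 to 63.3 and 45.4. Dbx1, of intermediate progenitors, went from 7.8 and 1.2 to 678 and 247. Nkx6-1, of ventral progenitors, went from 0.9 and 0.3 to 313 and 143. The mean changes of Pax3, Pax7, Dbx1 and Nkx6-1 were 4.09, 3.40, 5.54 and 5.28, with adjusted p of 0.00086, 0.00073, 0.000465 and 0.000251. In the secondary neurospheres Pax3, Pax7 and Dbx1 read between 0.6 and 17.5, while Nkx6-1 read 235 and 238.

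Shh, the ligand that patterns the ventral tube from the floor plate, was among the bright genes of the neurospheres. It went from 9.3 in iPS cells and 10.7 in ES cells to 1602 and 1153 (mean change 6.51, SE 0.57, adjusted p = 0.000284). Foxa2, the floor plate factor, went from 15.2 and 2.7 to 290.0 and 266 (4.50, adjusted p = 0.0023). Both were higher in every neurosphere array than in any pluripotent array, and Shh read 2729 and 4211 in the secondary neurospheres. Of 13 tested pathway genes 9 rose and 0 fell. Those that rose included the receptor component Smo (152 and 68.5 to 409.8 and 457), the co-receptors Boc and Gas1 (mean changes 2.86 and 4.18) and Gli3, mainly a repressor of the pathway (2.15, a call lost without the ES cells at an adjusted p of 0.0561). Gli1, the target gene often used as a readout of hedgehog activity, did not pass the test, at 49.8 in iPS cells, 112 in ES cells and 29.8 and 67.1 in their neurospheres. Ptch1, the receptor and also a target, read 744 and 1365 before and 1706 and 1838 after (0.81, adjusted p = 0.0571). With the line as a replicate block it passed, at an adjusted p of 0.017.

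Retinoic acid and Wnt genes held members that rose steeply. Retinoic acid gives posterior identity to neural tissue and is used in many neural induction protocols, but the labels do not say whether it was used here. Of 14 tested retinoic acid genes 4 rose and 0 fell, against 19.3% and 10.8% of all genes. They included Crabp1, which binds retinoic acid in the cytoplasm (200.5 and 137 to 2379 and 3020.3, mean change 3.97, adjusted p = 0.00451), and Cyp26b1, which degrades it (6.8 and 9.1 to 398 and 301, 4.77, adjusted p = 0.000649). Rarb, a receptor gene that retinoic acid induces, went from 5.8 and 2.4 to 93.7 and 53.6 (3.09, adjusted p = 0.00731, and 0.0579 without the iPS-line neurospheres). All 3 rose in both lines, to similar levels. Of 24 tested Wnt genes 10 rose and 1 fell. The secreted Wnt inhibitor Sfrp2 went from 49.4 and 97.3 to 1947 and 1172 (4.34, adjusted p = 0.000652). Among receptors, Fzd3, which guides axons, rose from 65.6 and 31.6 to 1698 and 1143 while Fzd5, the one member called lower, went, from 885 and 394 to 19.5 and 55.6.

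**Figure D2:**
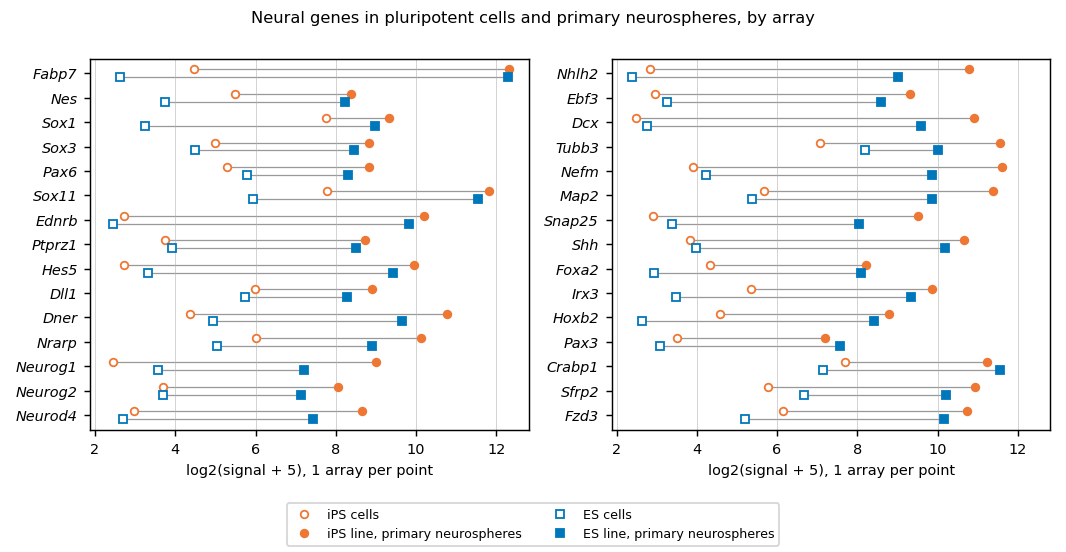
Signals of 30 neural genes on the 4 arrays, on a log2(signal + 5) x axis, 1 array per point and no error bars. Open points are iPS cells (orange circles) and ES cells (blue squares), filled points the primary neurospheres of the same line, joined by a grey line. Every gene is further right in the neurospheres of both lines, and for the proneural and neuronal genes (Neurog1 to Snap25) the filled orange point lies to the right of the filled blue one.

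During formation of the neural plate, epithelial cadherin is known to give way to neural cadherin. Cdh2 (N-cadherin), which holds neuroepithelial cells together, rose from 61.2 in iPS and 88.4 in ES cells to 2248 and 2096 (mean change 4.79, SE 0.31, adjusted p = 0.000109). Cdh1 (E-cadherin), its epithelial counterpart, read 1792 and 2179 in the pluripotent cells, 89 in the iPS-line neurospheres and 1026 in the ES-line neurospheres. Cdh2 thus stood at near-equal levels in both neurospheres, while Cdh1 was the higher one in those of the ES line (difference between the changes 3.17, SE 0.64, adjusted p = 0.15). The mean change of Cdh1, -2.67, missed the threshold (adjusted p = 0.0558) and passed with the line as a replicate block (0.0178) or without the ES-line neurospheres (0.000987). Epcam, another epithelial adhesion gene, read 380.2 and 904 before and 9.3 and 421 after. Zeb1 and Zeb2, repressors of Cdh1, rose from 136 and 52.9 to 826 and 434 and from 5.9 and 5.5 to 156 and 147 (mean changes 2.74 and 3.87, adjusted p = 0.0037 and 0.000436). Of 21 tested genes of this list 6 rose and 1 fell, against 19.3% and 10.8% of all genes. With the line as a replicate block 5 fell, and without the ES-line neurospheres 9.

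Among chromatin regulators some subunits fell while their relatives rose, in both lines. Over all genes 19.3% rose and 10.8% fell. Polycomb complexes keep developmental genes silent, and Phc1, a subunit rich in pluripotent cells, fell from 2097 and 2010.3 to 424 and 846 (mean change -1.77, adjusted p = 0.00321). Its paralogue Phc2 rose from 186 and 85 to 999.9 and 809 (2.79, adjusted p = 0.000818), and Bmi1, which neural stem cells need for self-renewal, from 66.1 and 32.8 to 702 and 447 (3.45, adjusted p = 0.000542). In the BAF remodelling complex, the ATPase gene Smarca2 rose from 8.0 and 0.4 to 84.1 and 140.2 (3.76, adjusted p = 0.00115). Smarcc2 rose from 30.4 and 34.2 to 298 and 175, and Ss18l1, the subunit of neurons' BAF complex, from 29.1 and 24.6 to 279.5 and 121. Over the lists, 3 of 18 Polycomb genes rose and 6 fell (2 without the iPS-line neurospheres and 3 without the ES cells), and 5 of 18 BAF genes rose and 1 fell (2 without the iPS cells or the ES-line neurospheres, 0 without either of the other arrays). Tet1, which oxidises methylated cytosine and is abundant in ES cells, fell from 1403 and 2259.5 to 228 and 493 (-2.39, adjusted p = 0.00279), and Tet3 rose from 1.7 and 1.3 to 37.2 and 18 (2.26, adjusted p = 0.00808, and 0.066 without the iPS-line neurospheres).

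On the losing side stood the naive pluripotency factors. Of 15 tested genes of the naive list 12 fell and 0 rose, against 10.8% of all genes that fell. Without the ES cells 6 fell, and without the iPS-line neurospheres 7. Tfcp2l1, a factor that LIF induces to maintain self-renewal, went from 1136 in iPS and 951 in ES cells to 3.1 and 102 (mean change -5.15, SE 1.03, adjusted p = 0.00787). Esrrb, an orphan nuclear receptor downstream of Nanog, went from 871 and 754 to 15.2 and 122 (-4.01, adjusted p = 0.00595), and Klf4 from 3824 and 1562 to 85.2 and 125 (-4.50, adjusted p = 0.00158). All 3 were well below the pluripotent level in both lines, and lower in the iPS-line neurospheres. Nanog itself went from 2779 and 2389.6 to 0.2 in the iPS line and 648 in the ES line. Its mean change of -5.47 (SE 1.79) passed narrowly (adjusted p = 0.0485) and failed under quantile normalization (0.0578), a pseudocount of 1 (0.065), no filter on dim probe sets (0.0572) a mean over probe sets (0.051) and a fit without an intensity trend (0.0618). It also failed without the iPS cells (0.127), the ES cells (0.137) or the iPS-line neurospheres (0.159).

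The promoters of Nanog and of Zfp42, the gene of the zinc finger protein Rex1, are shown because both hold TTTGCAT, part of the octamer that Oct4 binds. Both genes, like Pou5f1, were also at the floor in the iPS-line neurospheres and far above it in the ES-line ones. The sequences are from RefSeq (GRCm38.p6) and cover the 250 bases before the start, 5′ to 3′ on the gene's strand, with TTTGCAT in capitals. Nanog lies at chr6:122707239-122707488 on the plus strand and Zfp42 at chr8:43307010-43307259 on the minus strand.
Nanog: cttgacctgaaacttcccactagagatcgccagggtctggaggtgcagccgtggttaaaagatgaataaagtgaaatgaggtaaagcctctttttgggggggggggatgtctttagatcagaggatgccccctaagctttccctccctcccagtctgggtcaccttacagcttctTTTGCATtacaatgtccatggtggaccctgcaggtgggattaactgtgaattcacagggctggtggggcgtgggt
Zfp42: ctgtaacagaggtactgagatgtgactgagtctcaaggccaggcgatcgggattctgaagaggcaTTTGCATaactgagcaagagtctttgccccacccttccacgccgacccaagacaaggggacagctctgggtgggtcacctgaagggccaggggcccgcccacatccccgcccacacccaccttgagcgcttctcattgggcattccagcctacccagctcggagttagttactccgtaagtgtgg
The match begins 75 bases before the start of Nanog and 185 before that of Zfp42. It is only a run of letters, and binding was not measured. On either strand TTTGCAT occurred in 371 of 10960 promoters (3.39%), in 2 of the 9 naive list promoters found, and in 4.52% of those of genes lower in both lines. The 9 naive promoters also had few CpG dinucleotides, with a median observed over expected ratio of 0.462 against 0.75 over all promoters. That ratio was 0.192 for Nanog, 0.441 for Zfp42 and 1.04 for the Hes5 promoter.

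Genes downstream of LIF fell in both lines. Of 19 tested LIF and STAT3 genes 11 fell and 0 rose, with median changes of -2.64 and -1.25 in the iPS and ES lines. Without the iPS-line neurospheres 7 fell. Socs3, the feedback inhibitor that STAT3 induces, fell from 1787 and 1022 to 80.3 and 115 (mean change -3.75, SE 0.49, adjusted p = 0.00123), and Bcl3 from 129 and 153 to 0.7 and 7.9 (-4.08, adjusted p = 0.000592). Stat3 itself fell from 338 and 326 to 111 and 134 (-1.41, adjusted p = 0.00245), though 1 of its other 3 probe sets differed in sign in the ES line. In all 3 both neurosphere arrays were below both pluripotent arrays. Fgf4, the autocrine FGF of ES cells, fell from 694 and 739 to 3.2 and 134 (-4.42, adjusted p = 0.0193). Of the FGF and ERK feedback list, 4 of 20 rose and 6 fell, against 19.3% and 10.8% of all genes. The 6 included the ERK targets Spry4 (279.6 and 413 to 29.1 and 70) and Etv5 (1661 and 2822 to 174 and 946), and those that rose included the receptor gene Fgfr3 (34 and 16.8 to 428 and 147). Without the iPS-line neurospheres 1 rose and 1 fell, without the ES cells 2 and 3, and without the iPS cells 3 fell. Fgf4, Etv5 and Fgfr3 each lost the call without the ES cells or the iPS-line neurospheres (adjusted p from 0.0595 to 0.125), and Fgf4 also without the iPS cells (0.057).

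Some cell cycle genes fell. Of 28 tested replication and mitosis genes 14 fell and 0 rose, with medians of -1.43 in the iPS line and -0.60 in the ES line. The count depended on single arrays and on the scaling: 6 fell without the iPS cells, 6 without the ES cells, 2 without the iPS-line neurospheres, 9 under quantile normalization and 22 at equal medians. Ccne1, the G1/S cyclin that ES cells hold high through the cycle, fell from 729.8 and 1269 to 56.1 and 185 (mean change -3.17, adjusted p = 0.00263). Bub1b, of the spindle checkpoint, fell from 913 and 849 to 207 and 303 (-1.79, adjusted p = 0.00397). Among genes that brake or retime the cycle, Ccnd2, the D cyclin of neural progenitors, rose from 133 and 137 to 1488 and 2292 (3.72, adjusted p = 0.000109). Cdkn1c (p57), a CDK inhibitor of cells leaving the cycle, rose from 101 and 241 to 2279 and 1290.0 (3.41, adjusted p = 0.00126). Both rose in each line, Cdkn1c further in the iPS line.

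The lines differed in how much pluripotency signal was left. For each of the 37 tested genes of the naive and general pluripotency lists, the signal in the primary neurospheres was set against that in the line's own pluripotent cells. The iPS-line neurospheres kept a median of 1.87% (at most 80.0%) and the ES-line neurospheres 27.1% (range 7.99 to 138%). Low shares of the iPS line rest on signals near the floor, as 0.2 for Nanog, and their exact size cannot be read. The ES line kept more for 35 of the 37 genes, the 2 exceptions being Lin28a and Jarid2, while over all genes the change was the higher one in the ES line for 61.3%. For the 15 naive genes the medians were 1.95% and 16.2%, with the ES line higher in 15 of 15. In the secondary neurospheres the medians over the 37 genes were 0.921% of the iPS-cell and 2.29% of the ES-cell signal. Of the 22 tested genes of the general list 7 fell over both lines together, 4 without the ES cells or without the iPS-line neurospheres, and 17 without the ES-line neurospheres. With the line as a replicate block 16 fell.

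Pou5f1 (Oct4), without which pluripotency is lost, read 2818 in iPS cells and 2462 in ES cells, and 9.6 and 1174 in their primary neurospheres. The iPS-line neurospheres were at the floor and the ES-line neurospheres at 47.7% of the ES-cell signal, and the secondary neurospheres read 5.0 and 53.4. The change in the ES line exceeded that in the iPS line by 6.53 (SE 0.33, adjusted p = 0.00974). The mean change, -4.33, did not pass (adjusted p = 0.0787), and passed with the line as a replicate block (0.025). Dppa5a, an RNA-binding protein gene of naive cells, read 6115 and 6192 before and 24.8 and 4502 after, with 487 in the ES-line secondary neurospheres. Zfp42 read 3058 and 4299 before and 8.1 and 856 after, and L1td1, an RNA-binding protein gene of ES cells, 1922 and 4077 before and 7.9 and 1011 after. In each of these 3 the ES-line neurospheres stayed far above the floor and the iPS-line neurospheres were near it. Their line differences of 7.22, 5.55 and 5.22 missed the threshold (adjusted p = 0.257, 0.279 and 0.0572). All 3 passed when either adult fibroblast-derived array was left out.

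**Figure D3:**
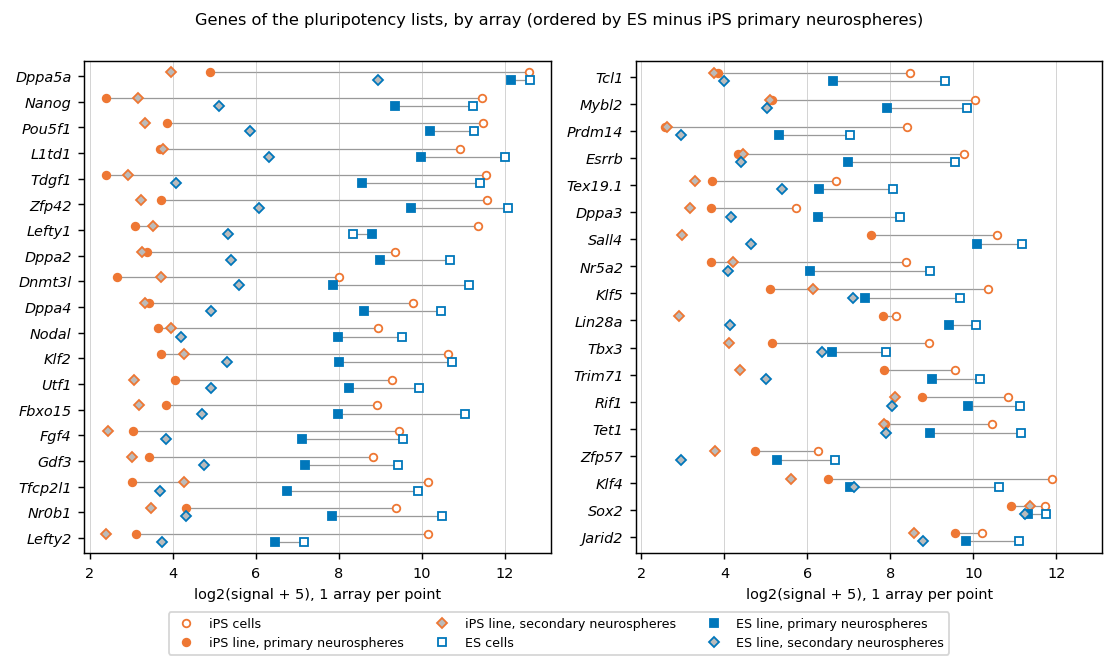
Signals of the 37 pluripotency genes by array on a log2(signal + 5) x axis, 1 array per point and no error bars. Open points are pluripotent cells, filled points primary neurospheres and grey diamonds secondary neurospheres, in orange for the iPS line and blue for the ES line, and a grey line joins the pluripotent cells to the primary neurospheres. The filled blue squares lie to the right of the filled orange circles for all 37 genes, and the blue diamonds lie to the left of the filled blue squares for all but Klf4.

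Of the 6 pluripotency markers used to check the labels, 1 reached a signal of 20 in the iPS-line neurospheres and 6 did in the ES-line ones. The 6 neuronal markers summed to 13977 and 5702 in the neurospheres of the iPS and ES lines, and the 5 astrocyte markers to 249 and 402. Slc1a3, which is also on the neural stem cell list, gave 202 and 335 of the astrocyte sums. Of the 5 astrocyte markers, 2 and 3 reached a signal of 20. The part of undifferentiated cells in the pluripotency signal of the ES-line spheres was not tested.

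The difference between the lines in the change was called for 5 of 13650 genes (0.0366%), each with the change in the ES line above that in the iPS line. At an unadjusted p under 0.05 there were 2080 (15.2%), of which 1638 had the ES change higher (12% of all genes) and 442 lower (3.24%). The fibroblast-derived neurosphere arrays form 2 pairs, and the arrays of each pair differ in medium, which the test counts as spread. This test has 2 residual degrees of freedom, which come from those 2 pairs and not from repeats of the 4 arrays compared. Its count follows those pairs: 307 or 339 genes were called when an adult fibroblast-derived array was left out, and 0 when an embryonic fibroblast-derived array was. It was also 0 with no intensity trend, 75 with a pseudocount of 1, 51 with a filter at 100 and 11 on the mean of a gene's probe sets.

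Beside Pou5f1, the called genes were Mtm1, Hspb1, Chchd10 and S100a4. Hspb1, a small heat shock protein, read 2592 and 3942 in iPS and ES cells and 10.2 and 1174 in their neurospheres (difference 5.67, SE 0.27, adjusted p = 0.00974). Chchd10, a mitochondrial protein, read 7481 and 4391 before and 119 and 2286 after (4.98, SE 0.24, adjusted p = 0.00974). Mtm1, a lipid phosphatase, read 5183 and 6758 before and 46.7 and 5000.1 after (6.21, SE 0.26, adjusted p = 0.00974). In each of the 3 the iPS-line neurospheres were the low array by a wide margin, and the ES-line neurospheres lay between them and the ES cells, as for the pluripotency genes above. Mtm1 is named through 3 probe sets, and the dimmest went from 65.3 to 24.3 in the iPS line and from 30.9 to 39.1 in the ES line. S100a4, a calcium-binding protein of fibroblast-like cells, was dim on all 4 arrays but that of iPS cells, with 144 and 0.7 before and 0.5 and 7.8 after (5.93, SE 0.34, adjusted p = 0.0162). With a pseudocount of 20 its difference was 3.43 and the call was lost (adjusted p = 0.115).

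The 182 genes lower in the iPS line only divide by where the lines differed. For 80 of them the pluripotent cells of the lines were within 1 of each other on the log2 scale and the neurospheres were not, for 55 the cells differed and the neurospheres did not, for 42 both did and for 5 neither. The rule of the class builds in higher iPS cells, higher ES-line neurospheres or both, so these directions are no result, and the split only says which end carries the difference. The iPS cells were higher by at least 1 for 97 genes. In the secondary neurospheres of the ES line, 57 of the 182 were lower than in ES cells by at least 1 and 33 higher. Lefty1, a secreted inhibitor of Nodal, was of the kind that differed at both ends, with 2629.6 in iPS and 321 in ES cells and 3.5 and 444 in their neurospheres. Otx2, a factor of the primed epiblast and forebrain, differed only at the end, with 200.5 and 247 before and 3.4 and 319.9 after. Zic5, a neuroectodermal zinc finger gene that ES cells already hold, read 319.7 and 456 before and 3.6 and 322 after. Otx2 and Zic5 were below 4 in the iPS-line neurospheres and above 300 in those of the ES line, and in the ES-line secondary neurospheres they read 18.7 and 21.4.

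Genes of sugar uptake and lactate production are given by their values. Slc2a3 (GLUT3), the glucose carrier of ES cells and neurons, read 5407 and 3719 before and 268 and 2777 after. Ldha, which makes lactate, read 2539 and 5059 before and 361 and 3222 after, and Pdk1, which keeps pyruvate out of the mitochondrion, 1016 and 1213 before and 40.4 and 626 after. The iPS-line neurospheres were the low array in all 3. The line differences of 3.89, 2.15 and 3.54 missed the threshold (adjusted p = 0.12, 0.0575 and 0.0572). All 3 passed when either adult fibroblast-derived array was left out. Of 20 tested glycolysis and hypoxia genes 3 fell over both lines, Hk2, Pfkp and Aldoa, and 0 rose, against 10.8% and 19.3% of all genes. Without the ES-line neurospheres 10 fell, without the ES cells or the iPS-line neurospheres 1, and without the iPS cells 2 rose. With the line as a replicate block 5 fell. The level was higher in the ES-line neurospheres for 19 of the 20, against 7452 of 13650 genes.

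Hprt, the purine salvage enzyme, was put in this class by its iPS-line values alone. It read 1887 in iPS cells and 179 in their neurospheres, and 12.3, 11.6 and 10.8 in ES cells and their primary and secondary neurospheres. The ES-line values were at the floor at each stage, and EB3 is, as background, a subline of E14tg2a, a line selected for loss of Hprt. Fos, an immediate early gene, likewise began at different levels, with 4624 in iPS and 56.8 in ES cells, and read 33.1 and 82.5 in the neurospheres.

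Few genes were higher in the iPS line only (26). Kbtbd11, a Kelch-domain gene, read 14.5 and 219 before and 1293 and 284 after, on 1 probe set, and its other probe set had the other sign in the ES line. Nap1l5, an imprinted gene of brain, read 11.9 and 4.4 before and 425 and 5.6 after, and in secondary neurospheres 796 and 32.5. Trim2, a ubiquitin ligase of neurons, read 170.3 and 724 before and 1266 and 603 after, so that the ES cells began near the level at which their neurospheres ended. The rule again builds in higher ES cells or higher iPS-line neurospheres. In 14 of the 26 the ES cells were higher than the iPS cells by at least 1, and in 14 the iPS-line neurospheres were the higher ones. In the secondary neurospheres of the iPS line 20 of the 26 were still above the iPS cells by at least 1. The 13 genes lower in the ES line only, where the rule builds in a higher ES start or lower ES-line neurospheres, included Lncenc1, a long noncoding RNA of naive ES cells (5.5 and 420.4 before, 6.4 and 69.6 after), and Fmr1nb (12.1 and 309.7 before, 15.8 and 46.9 after).

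The 83 genes higher in the ES line only included genes of other embryonic tissues and members of the neural lists, such as En2 and Tnc. Zic1, a factor of dorsal neural tube and somites, read 28 and 4.4 in iPS and ES cells and 29.2 and 932 in their neurospheres. Col3a1, a collagen of connective tissue, read 106 and 6.7 before and 126 and 687 after, and Actc1, the cardiac actin, 12.3 and 6.6 before and 8.3 and 326 after. In all 3 the ES-line neurospheres were the high array of the 4. Afp, a gene of yolk sac and liver endoderm, read 1.4 and 121 in the iPS-line and ES-line neurospheres, and Fgf5, the classical marker of primed epiblast, 0.2 and 129. Both were at the floor in the pluripotent cells of both lines and in all secondary neurospheres (Afp 0.3 and 0.1, Fgf5 6.0 and 2.0). Igf2, the growth factor of fetal tissue, read 119.9 and 43.6 before and 88.3 and 860.3 after, and went on to 2947 in the ES-line secondary neurospheres against 77.4 in those of the iPS line.

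As its rule requires, the class holds genes that began lower or ended higher in the ES line. In 52 of the 83 the iPS cells were above the ES cells by at least 1, and in 50 the ES-line neurospheres were above the iPS-line ones, with 22 in both groups. In secondary neurospheres 71 of the 83 were above their pluripotent cells by at least 1 in the ES line and 47 in the iPS line. Col3a1, for example, read 464 in the iPS-line secondary neurospheres. Of the 97 genes that went in opposite directions, 90 were lower in the iPS line and higher in the ES line (0.659%) and 7 the other way (0.0513%). Fgf15, a growth factor of early neuroepithelium, read 56 and 64.1 before and 20.2 and 646 after. Fst, an activin inhibitor, read 159 and 25.6 before and 32 and 343 after, and Rhox5, a homeobox gene of germline and extraembryonic cells, 148 and 198 before and 17.7 and 826 after. In all 3 the ES-line neurospheres were the highest of the 4 arrays. Of the 7 genes of the other kind, Klhl13 read 124 and 1863 before and 619 and 850.2 after.

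**Figure D4:**
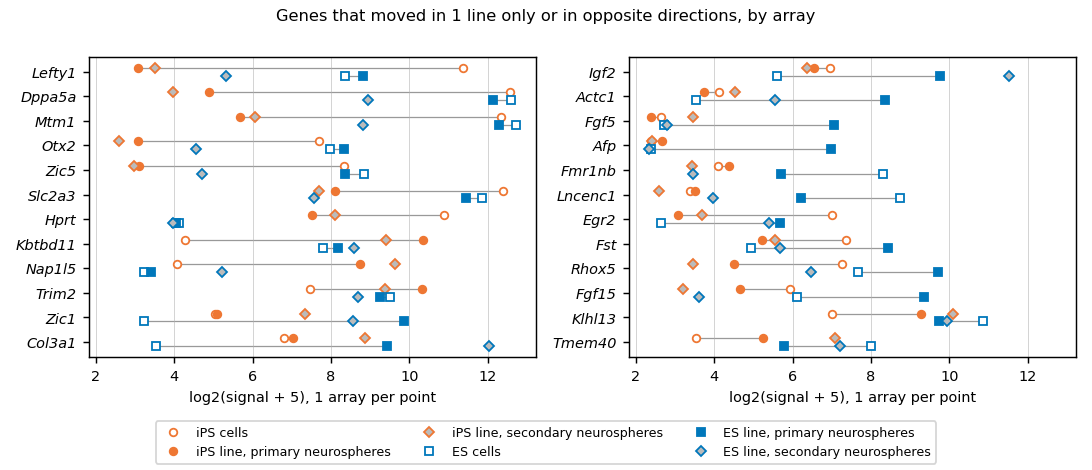
Signals of 24 genes of the 1-line and opposite classes by array on a log2(signal + 5) x axis, 1 array per point and no error bars. Symbols are open for pluripotent cells, filled for primary and grey diamonds for secondary neurospheres, in orange for the iPS line and blue for the ES line. For Lefty1 to Slc2a3 the filled orange point lies far to the left of the filled blue one, for Zic1, Col3a1 and Igf2 to Afp the filled blue point is the rightmost of the 4 points of cells and primary neurospheres, and Hprt in the ES line stays at the left at all stages.

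Fibroblast and matrix genes had opposite medians in the 2 lines, -0.90 in the iPS line and 0.98 in the ES line. Of these 24 genes 0 rose and 2 fell over both together (2 rose without the iPS cells), against 19.3% and 10.8% of all genes. The 6 fibroblast markers summed to 343 in iPS cells and 63.5 in ES cells, and to 191 and 876 in the neurospheres of the iPS and ES lines. The sum of the iPS line thus began above that of the ES line and ended below. Col3a1 alone gave 126 and 687 of the neurosphere sums. Of the 6 markers, 2 reached a signal of 20 in the iPS-line neurospheres and 5 in the ES-line ones. Thy1, another of them, read 39.2 and 42.7 before and 10.3 and 22.6 after. Col1a2, a chain of type I collagen, read 163 and 8.3 before and 20.8 and 83.8 after. Fn1, fibronectin, fell in both lines, from 3013 and 1323 to 145 and 509 (mean change -2.85, adjusted p = 0.00798). Whether other cells in either culture supplied these signals was not tested.

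Of the germ layer lists, 4 of 18 tested endoderm genes rose and 0 fell (2 fell without the ES-line neurospheres and 1 with the line as a replicate block), and 2 of 15 mesendoderm and mesoderm genes rose and 1 fell (3 without the ES-line neurospheres, 2 with the block). By line, 6 of the 18 endoderm genes rose by at least 1 in the iPS line and 12 in the ES line. On the mesoderm list 3 and 8 of 15 did, against 2897 and 3324 of all 13650 genes. The change was higher in the ES line for 18 of 18 endoderm genes, against 61.3% of all genes. The members called higher over both lines are also known from neural tissue. On the endoderm list they were Foxa1 and Foxa2 of the floor plate, Cxcr4 of migrating neurons and Ttr of choroid plexus. On the mesoderm list they were Lhx1 and Isl1 of spinal interneurons and motor neurons. Lhx1 went from 3.0 and 1.2 to 624 and 173 (mean change 5.57, adjusted p = 0.0039), and Isl1 from 13.8 and 10 to 247 and 101 (3.28, adjusted p = 0.00494). The member that fell, Tcf15, read 646 and 414 before and 18.6 and 95.1 after. Of the neural crest list 3 of 13 rose and 1 fell. Over all genes, the background for these 3 lists, 19.3% rose and 10.8% fell. Tfap2b rose from 0.4 and 0.8 to 44.5 and 168 (4.05, adjusted p = 0.00502) and the pigment cell factor Mitf fell from 104 and 92.6 to 15.9 and 22.8, while Sox10 was at 9.4 or below on all 4 arrays. The 5 mesoderm markers set out for the check of other cell types, T among them, are not analysed here.

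Some calls on the blood, placenta and epiblast lists were genes that the spinal cord shares. Each list count of this paragraph stands against 19.3% of all genes that rose and 10.8% that fell. Gata3 went from 0.6 and 0.6 to 80.5 and 39.9 (mean change 3.47, adjusted p = 0.00144), Gata2 from 23.9 and 26.5 to 219 and 123 (2.49, adjusted p = 0.0118, and 0.0873 without the iPS-line neurospheres), and Tal1 from 8.9 and 10 to 125 and 64.8 (2.72, adjusted p = 0.00253). These factors are known from blood and trophectoderm and, in the neural tube, from inhibitory V2b interneurons. All 3 were higher in both neurospheres than in any pluripotent array. They were the 2 genes of 13 on the trophectoderm list and the 1 of 15 on the endothelial and blood list that rose, while 1 and 2 fell. On the primed epiblast list 2 of 9 rose, Sox3 and Sall2, and 0 fell. Of 11 germline genes 2 fell (0 without the iPS-line neurospheres, 1 without either pluripotent array, and 6 without the ES-line neurospheres or with the line as a replicate block) and of 18 interferon genes 1 fell, Bst2, with 0 that rose on either list. Of 22 BMP, Nodal and Id genes 2 rose and 2 fell (4 rose and 0 fell without the iPS cells, 1 fell without the ES cells or the iPS-line neurospheres, and 6 without the ES-line neurospheres), Id4, an Id repressor of neural progenitors, going from 189 and 42.2 to 1414 and 1149 (3.74, adjusted p = 0.00499).

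Among 22 tested imprinted genes 4 rose and 1 fell, against 19.3% and 10.8% of all genes. Ndn (necdin) and Magel2, neighbours in the Prader-Willi region and both high in neurons, rose together: Ndn from 118 and 84.5 to 2802 and 2232 (mean change 4.58, adjusted p = 0.000109) and Magel2 from 16.9 and 5.8 to 174 and 151 (3.44, adjusted p = 0.000854). The other 2 that rose were Cdkn1c and Sgce, the latter with another probe set of opposite sign in the iPS line and a call lost without the iPS-line neurospheres (adjusted p = 0.05 when rounded). Phlda2, a growth brake of the placenta, fell from 649 and 1246 to 2.6 and 106 (-4.96, adjusted p = 0.0094, and 0.0549 without the ES cells). Read through their brightest probe sets, all 5 moved the same way in both lines. With the 4 arrays alone and the line as a replicate block, 8 of the 22 rose and 2 fell.

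**Figure D5:**
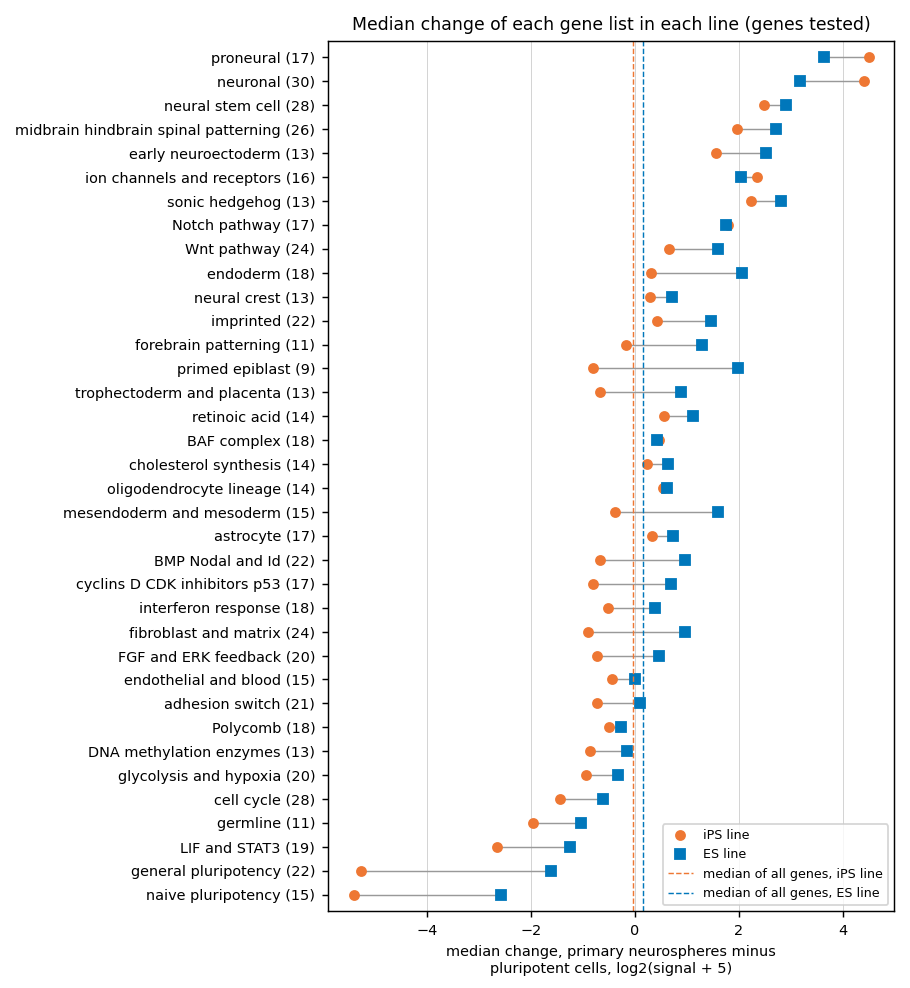
Median change of each of 36 gene lists in the iPS line (orange circles) and the ES line (blue squares), in units of log2(signal + 5), with the number of genes tested in brackets. The dashed lines mark the medians of all 13650 genes, -0.03 and 0.16. The neural stem cell, proneural and neuronal lists lie to the right in both lines and the pluripotency lists to the left, further left in the iPS line, while the forebrain, primed epiblast, mesoderm, BMP and fibroblast lists lie on opposite sides of 0.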

How the data were processed

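Per the submitters' processing notes, the authors made the deposited intensity values with MAS5 in Affymetrix Expression Console 1.1. Each array's values, with 2% trimmed at either end, average 100. Of 45101 probe sets, 64 were controls, 34945 named 1 gene in the platform annotation, 932 several and 9160 none. Probe sets that reached 20 on any of the 12 arrays were kept, and each gene was read through its probe set of highest mean signal, which left 13650 genes. The deposited intensities were set to log2(signal + 5).

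The mean change over both lines was tested with limma 3.58.1 (R 4.3.3, trend, Benjamini-Hochberg over all genes) on 12 arrays in 7 groups, with 5 residual degrees of freedom. The difference between the lines came from a fit of 10 groups with 2. The iPS arrays have replicate number 1 and the ES arrays 2, and a number is a cell line, so the numbers pair the samples. The main fit did not use this pairing. With the line as a replicate block 5003 genes were called, against 4109. The deviations of pluripotent and primary arrays from their group means correlated at 0.252 across genes. With so few arrays, their number limits the precision.

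The members and the 36 gene lists were chosen with earlier results of these data known. Named genes are the 10 highest and 10 lowest calls, 8 per class, the 4 largest of each list and fixed markers, of which a part is described. Further genes, chosen after their values were seen, illustrate list counts, among them Tal1, Gata2, Gata3 and Sall2. Promoters are from RefSeq (GRCm38.p6). Other scalings, pseudocounts, filters, probe-set rules, thresholds, blocks and left-out arrays were tried.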

Additional observations from a re-analysis of the deposited data

Results flagged for a closer look

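For 5 genes the change in the ES line exceeded that in the iPS line at an adjusted p under 0.05: by 6.53 for Pou5f1, 6.21 for Mtm1, 5.93 for S100a4, 5.67 for Hspb1 and 4.98 for Chchd10, on the log2(signal + 5) scale. Each arm is 1 array, and all 5 calls were lost without an intensity trend (adjusted p from 0.19 to 0.223) or without an embryonic fibroblast-derived array (0.258 to 0.311). For 11 gene lists the median change was below 0 in the iPS line and above 0 in the ES line, a difference that was not tested. The iPS-line medians were -0.80 for primed epiblast, -0.17 for forebrain, -0.38 for mesendoderm and mesoderm, -0.67 for trophectoderm and placenta, -0.90 for fibroblast and matrix, -0.44 for endothelial and blood, -0.73 for the adhesion list, -0.66 for BMP, Nodal and Id, -0.73 for FGF and ERK feedback, -0.81 for D cyclins, CDK inhibitors and p53, and -0.52 for interferon genes. In the ES line the endothelial and blood and the adhesion medians, 0.01 and 0.10, changed sign with the scaling.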

How the results depend on the processing

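Of 2394 values for the mean change of 150 genes under the alternatives, 2302 kept direction and side of the threshold, 64 lost the call, 24 gained it and 4 changed sign (Gfap at 0.14 on the mean of probe sets, and between -0.45 and 0 with 1 array left out, the latter without the ES cells, and Stmn2 between -0.22 and 0.78, below 0 without the iPS cells at -0.02 or the iPS-line neurospheres). The cause was not tested, beyond fewer arrays where one was left out. Of 708 values for the line difference of 59 genes, 586 kept direction and side of the threshold, 16 lost the call and 106 gained it. Sox1, Cdh1, Nefl and Ina were among those that gained it without either adult fibroblast-derived array. Leaving out 1 array of the 2 stages at a time gave 1555 to 4539 genes that differed, 1301 to 2747 higher and 254 to 2013 lower. The lower count was 2335 at equal medians, 979 with 4 arrays and a replicate block and 951 with the 6 arrays of iPS and ES origin and a block. Those 6 arrays without the block gave 2271 in all and 482 lower. With the line as a replicate block in all 12 arrays 5003 genes were called, and beyond the calls and counts named above it turned no gene's call to lost.

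The line difference was called for 75 genes with a pseudocount of 1, 51 with a filter at 100, 11 on the mean of probe sets and 0 without a trend, and for 0 to 339 when a fibroblast-derived array was left out. That range was 2023 to 5943 for the change in the iPS line and 648 to 4519 in the ES line.

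With an alike threshold of 2 the classes held 1378 genes, 942 alike higher, 125 alike lower, 7 lower in the iPS and higher in the ES line and 0 the other way. A 1-line threshold of 1.5 gave 85 and 359 higher and lower in the iPS line only and 204 and 33 in the ES line only. In that order of 4 classes, a pseudocount of 20 gave 10, 80, 29 and 6, with opposite classes of 27 and 1. A pseudocount of 1 gave 46 higher in the iPS line only, 140 and 26 in the ES line only, and opposite classes of 189 and 39. Equal medians gave 1464 alike lower, 45 higher in the iPS line only, 30 lower in the ES line only and 22 in the smaller opposite class. Quantile normalization gave 28 and 18 in the last 2, a filter at 100 gave 7 and 3, with 16 higher in the iPS line only, and no filter 11 in the smaller opposite class. The median share of pluripotent signal kept was 2.23% under quantile normalization, 1.84% at equal medians and 1.95% on the mean of probe sets in the iPS line, and 20.8% at equal medians in the ES line. Dim probe sets bound what can be seen, since values near the floor have no order.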
